A study of Mus musculus with 8 samples.

Results

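The 30 genes described here are a list of mouse trophoblast genes, the transcription factors, keratins, X-linked homeobox genes and placental products that mark the lineage forming the fetal side of the placenta. They were taken by symbol from a fixed list, matched through the GENCODE M21 annotation of GRCm38 (the build called mm10), out of 54232 genes counted, and all 30 were found in both count tables. Messenger RNA was profiled by sequencing in E14, an embryonic stem (ES) cell line of the mouse whose strain the labels give as 12910la, grown on gelatin in 15% serum with 10 ng/ml of the cytokine LIF. In 1 experiment, Ssrp1_KO cells, in which Cas9 and a guide RNA had targeted Ssrp1, a subunit of the histone chaperone FACT, were compared with Ssrp1_Control cells. In the other, Usp7_KD cells, which carried an shRNA against the deubiquitinase Usp7 on a puromycin vector (1000 ng of plasmid, then after 24 h 1 ug/ml puromycin for 3 days), were compared with Usp7_Control cells. Each of the 4 groups had 2 libraries. The protocol speaks of wild-type ES cells and Ssrp1 knockout lines, but the labels do not say whether the knockout libraries come from 1 clone or from several, nor whether the Usp7_Control cells received an empty vector or puromycin. Nothing says that the replicates were separate cultures, so the p-values speak for the spread among these libraries, which may be technical.

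Trophectoderm is the outer layer of the blastocyst, and ES cells, which derive from the inner cell mass, normally do not enter it. In the embryo Tead4 with Yap1 turns on Cdx2 and Gata3 in outer cells, Tfap2c, Eomes and Elf5 then maintain trophoblast stem cells under Fgf4 signalling through Fgfr2, and Hand1, Ascl2 and Gcm1 direct the giant cell, spongiotrophoblast and syncytiotrophoblast branches. In ES cells high Pou5f1 and DNA methylation of genes such as Elf5 are known to hold this programme down.

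Across the list, 3 genes passed the test, each in 1 experiment and each higher than in the controls. Esx1 and Gata3 rose in Ssrp1_KO cells and Krt7 rose in Usp7_KD cells. Their promoters are shown because the results turn on these genes. Each window runs from 250 bases before to 50 bases after the RefSeq start in GRCm38.p6 (mm10), 5′ to 3′ on the gene's own strand, and capitals mark matches to GCCNNNGGC, a core bound by AP-2 (Tfap2) factors, searched on both strands. The Esx1 window is chrX:137120277-137120576 on the minus strand and holds no match. The Gata3 window is chr2:9878551-9878850 on the minus strand and holds 3 matches, and the Krt7 window is chr15:101412153-101412452 on the plus strand and holds 2.
Esx1: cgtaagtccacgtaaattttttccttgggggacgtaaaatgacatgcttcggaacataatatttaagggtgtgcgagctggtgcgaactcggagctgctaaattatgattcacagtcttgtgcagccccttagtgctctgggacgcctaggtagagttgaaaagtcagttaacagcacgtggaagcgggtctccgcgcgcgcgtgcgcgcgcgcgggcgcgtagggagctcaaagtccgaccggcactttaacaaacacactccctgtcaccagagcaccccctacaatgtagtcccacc
Gata3: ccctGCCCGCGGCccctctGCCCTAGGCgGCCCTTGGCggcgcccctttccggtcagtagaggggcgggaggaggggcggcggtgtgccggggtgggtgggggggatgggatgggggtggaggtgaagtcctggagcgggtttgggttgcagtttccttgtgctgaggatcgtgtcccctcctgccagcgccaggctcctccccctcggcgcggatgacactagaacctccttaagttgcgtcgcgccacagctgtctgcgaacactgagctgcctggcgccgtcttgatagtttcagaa
Krt7: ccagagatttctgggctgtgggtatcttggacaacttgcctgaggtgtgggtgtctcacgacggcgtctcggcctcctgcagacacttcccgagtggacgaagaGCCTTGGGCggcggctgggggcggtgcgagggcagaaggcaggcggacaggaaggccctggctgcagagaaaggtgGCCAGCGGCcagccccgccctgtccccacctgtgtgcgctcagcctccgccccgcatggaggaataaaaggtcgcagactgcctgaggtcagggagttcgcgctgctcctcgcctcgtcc
Each of the 3 windows lies inside the wider gene span of the GENCODE annotation. They held 24, 22 and 21 CpG dinucleotides in the order printed, against a median of 7 in the 32851 mouse promoters searched. The AP-2 core was in 16.6% of those promoters, and in 8 of the 26 windows found for 22 of the 30 trophoblast genes, those of Cdx2, Gata2, Gata3, Krt7, Krt18, Syna, Tpbpa and Tpbpb. Cores for the families of Tead4, Gata3 and Cdx2 were searched as well. The Tead4 family core was in 2 of the 26 windows and 14.7% of all promoters. For the Gata3 family these values were 2 and 11.2%, and for the Cdx2 family 6 and 11.9%. The 3 printed windows held 0 matches to these other cores. A letter match of this kind is a description and not a binding site.

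Total counts were 15879056 to 18361130 per library, and a gene with 0 counts could have had up to 0.163 to 0.189 CPM (read counts scaled to a common library size, here with TMM factors within each experiment), a limit that covers counting error only. In the libraries labelled Ssrp1_KO, Ssrp1 itself had 400 and 120 CPM, against 423 and 460 CPM in Ssrp1_Control libraries, so replicate 1 kept nearly the control level of this transcript (log2 change -0.77, adjusted p = 0.41; -1.94, adjusted p = 0.0021 without that library, with 0.0021 to 0.9 over the alternatives). A frameshift need not lower a transcript, and protein was not measured. Usp7 had 2106 and 2339 counts in Usp7_KD libraries, against 6546 and 6484 counts in Usp7_Control libraries, a log2 change of -1.64 (adjusted p = 0.0012; 0.13 without Usp7_KD replicate 2 and 2.8e-22 to 0.13 over the alternatives). All 11 ES cell markers were detected in every library. They summed to 8750 and 8650 CPM in Ssrp1_KO libraries, against 10900 and 8950 CPM in Ssrp1_Control libraries. In Usp7_KD libraries they summed to 6160 and 5720 CPM, against 7930 and 6850 CPM in Usp7_Control libraries. Both Usp7_KD values were below both controls for 7 of the 11 and above them for 1, where 23.4% and 24.6% of all genes tested were. In the Ssrp1 experiment 3 were below and 2 above, where the shares were 22.7% and 27.3%. Pou5f1, the factor that restrains trophectoderm in ES cells, had a log2 change of -0.50 (adjusted p = 0.45) in the Ssrp1 experiment and -0.33 (adjusted p = 0.55; 0.033 without Usp7_Control replicate 2 and 0.033 to 1.0 over the alternatives) in the Usp7 experiment.

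The filter on low counts kept 18 of the 30 genes in the Ssrp1 experiment and 21 in the Usp7 experiment. Of the 18, edgeR's quasi-likelihood test with Benjamini-Hochberg adjustment over all genes called 2 higher and 0 lower (threshold 0.05 for the adjusted p), where 3.71% of all 15757 genes tested were called, 3.39% higher and 0.324% lower. Of the 21, it called 1 higher and 0 lower, where 2.99% of 15915 genes were called, 2.36% higher and 0.628% lower. DESeq2 called 2 in the Ssrp1 experiment (Esx1 and Hand1; 6.78% of all genes) and 0 in the Usp7 experiment (4.23%), limma-voom called 2 (Esx1 and Gata3; 2.55%) and 0 (2.78%), and edgeR with a GC and length correction called 1 (Esx1; 1.83%) and 2 (Krt7 and Tfap2c; 5.50%). At an unadjusted p under 0.05 there were 4 higher and 0 lower in the Ssrp1 experiment (18.2% of all genes, 13.3% higher and 4.95% lower), and 10 higher and 4 lower in the Usp7 experiment (16.7% of all genes, 9.52% higher and 7.18% lower). The median log2 change of the tested list was 0.82 in the Ssrp1 experiment and 0.73 in the Usp7 experiment, beside 0.03 and -0.02 over all genes tested. A gene can pass the filter through the libraries in which it is high, and all controls were under 10 counts for Gata3 in the Ssrp1 experiment and for Cdx2, Krt7, Gata3 and Gcm1 in the Usp7 experiment, so these summaries describe the genes that passed and give no support by themselves. In bulk RNA, more cells of a trophoblast-like kind and more RNA of these genes per cell cannot be told apart.

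**Figure D1:**
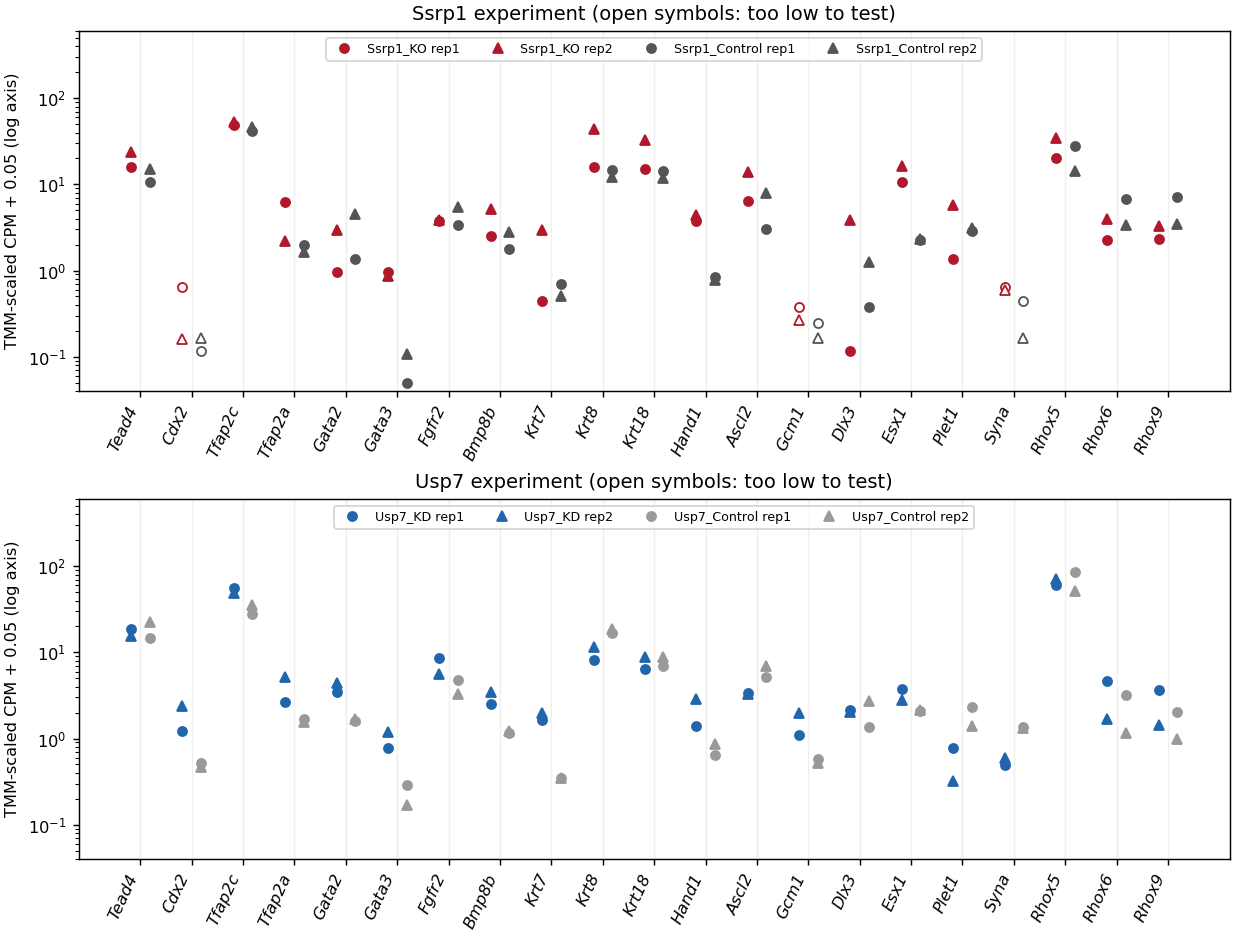
Level of each trophoblast gene tested in at least 1 experiment, as TMM-scaled CPM plus 0.05 on a log axis, in every library of the Ssrp1 experiment and of the Usp7 experiment; each point is 1 library, open where the gene was too low to test. Esx1 and Gata3 stand clear of their controls in Ssrp1_KO cells and Krt7 does so in Usp7_KD cells, while Rhox5, Tfap2c, Tead4, Krt8 and Krt18 were high in all groups.

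Per length, Rhox5 was the most abundant of the 30 in every group. Its mean level was 36.6 CPM per kb of exon in Ssrp1_KO and 28.0 in Ssrp1_Control libraries, and 86.6 in Usp7_KD and 90.6 in Usp7_Control libraries. Tfap2c, Krt8 and Krt18 came next in all 4 groups. In Ssrp1_KO their order was Krt18 (16.8 ± 8.90 CPM per kb, SD, n = 2), Krt8 (15.3 ± 10.1) and Tfap2c (13.8 ± 0.745), which overlapped one another. In Ssrp1_Control it was Tfap2c (12.0 ± 0.831), Krt18 (9.06 ± 1.33) and Krt8 (6.87 ± 1.00), each separated from the next in both libraries. Tfap2c (14.3 ± 1.54) stood above Krt18 (5.29 ± 1.21) and Krt8 (4.98 ± 1.24) in Usp7_KD, where those keratins overlapped, and in Usp7_Control Krt8 (8.98 ± 0.700) and Tfap2c (8.58 ± 1.52) overlapped above Krt18 (5.46 ± 0.999). Esx1 was 5th of the 30 in Ssrp1_KO, at 6.76 ± 1.97 CPM per kb, where it overlapped Krt8 above it and Ascl2 (6.17 ± 3.23) and Tead4 (5.46 ± 1.49) below it. It was 8th in Usp7_KD, at 1.63 ± 0.345, where it overlapped Rhox6 (3.07 ± 2.03) above it and Hand1 (1.05 ± 0.540) and Rhox9 (1.01 ± 0.650) below it.

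Among the factors that specify trophectoderm, Gata3 rose and Cdx2 stayed too low to test in Ssrp1_KO cells. Gata3, a zinc finger factor that acts beside Cdx2, had 14 and 15 counts in Ssrp1_KO libraries, against 0 and 1 counts in Ssrp1_Control libraries. The groups did not overlap, and the control level rests on 1 read. The ratio of summed counts was 28.5, with an exact 95% interval of 4.73 to 1170 for counting error, and the fitted log2 change was 4.54 (SE 1.07, adjusted p = 0.043). That call ended without Ssrp1_Control replicate 1 (3.76, adjusted p = 0.7), without Ssrp1_Control replicate 2 (6.83, adjusted p = 0.22) and with a GC and length correction (4.58, adjusted p = 0.067), with 0.012 to 0.7 over the alternatives. In the Usp7 experiment Gata3 had 13 and 21 counts in Usp7_KD libraries, against 4 and 2 counts in Usp7_Control libraries (log2 change 2.36, SE 0.71, adjusted p = 0.12). Its values were again apart, on low counts in both groups, and it missed the threshold here, with 0.035 to 0.93 over the alternatives. Exons of Gata3 overlap those of Gm13256 and 9230102O04Rik, which each had at most 1 count in any library.

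Cdx2, the homeobox factor that defines trophectoderm, had 9 and 2 counts in Ssrp1_KO libraries, against 1 and 2 in Ssrp1_Control libraries, a count ratio of 3.61 with an interval of 0.953 to 20.1. Those groups touched at 2 counts, and no difference was detectable at this depth. Cdx2 had 21 and 42 counts in Usp7_KD libraries, against 8 and 7 counts in Usp7_Control libraries. Both Usp7_KD values were above both controls, but the log2 change of 1.96 (SE 0.58, unadjusted p = 0.0061) had an adjusted p of 0.11 (0.047 without Usp7_Control replicate 2 and 0.013 to 1.0 over the alternatives). Elf5, an ETS factor of trophoblast stem cells, stayed at 0 to 6 counts in every library. Its ratio was 5.9 in the Ssrp1 experiment on 6 counts against 1 (interval 0.716 to 272), and all 6 counts of the Usp7 experiment were in Usp7_KD replicate 1.

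Tfap2c, the AP-2 factor of trophoblast stem cells that ES cells also express, had 48.8 and 52.6 CPM in Ssrp1_KO libraries, against 42.0 and 46.3 CPM in Ssrp1_Control libraries (log2 change 0.20, SE 0.28, adjusted p = 0.77). Tfap2c had 56.5 and 48.5 CPM in Usp7_KD libraries, against 27.6 and 35.5 CPM in Usp7_Control libraries (0.73, SE 0.21, adjusted p = 0.094). Of the tested genes it had the smallest standard error in each experiment, and its Usp7 value passed without Usp7_Control replicate 2 (0.92, adjusted p = 0.00046; 0.00043 to 0.69 over the alternatives). Its relative Tfap2a had 6.25 and 2.14 CPM in Ssrp1_KO libraries, against 1.90 and 1.59 CPM in Ssrp1_Control libraries (1.26, SE 0.66, adjusted p = 0.36). The higher value came from replicate 1 here, and without replicate 2 the change passed (1.83, adjusted p = 0.022; 0.022 to 0.95 over the alternatives). After Usp7 knockdown Tfap2a had 2.61 and 5.16 CPM in Usp7_KD libraries, against 1.65 and 1.53 CPM in Usp7_Control libraries (1.29, SE 0.44, adjusted p = 0.17; 0.038 to 1.0 over the alternatives). The groups were apart in both experiments.

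Gata2, a partner of Gata3 in giant cells, had 0.921 and 2.91 CPM in Ssrp1_KO libraries, against 1.31 and 4.47 CPM in Ssrp1_Control libraries (log2 change -0.59, SE 0.76, adjusted p = 0.75). Its replicates spread more than its groups. Gata2 levels in Usp7_KD libraries were 3.44 and 4.39 CPM, against 1.53 and 1.64 CPM in Usp7_Control libraries (1.30, SE 0.39, adjusted p = 0.12). Both Usp7_KD values were above both controls, and the change passed without Usp7_Control replicate 2 (1.34, adjusted p = 0.027; 0.019 to 0.93 over the alternatives). Tead4, which binds DNA with Yap1 at the top of the trophectoderm cascade, had 15.9 and 23.4 CPM in Ssrp1_KO libraries, against 10.6 and 15.2 CPM in Ssrp1_Control libraries (0.61, SE 0.39, adjusted p = 0.46). After Usp7 knockdown Tead4 had 18.6 and 15.4 CPM in Usp7_KD libraries, against 14.6 and 22.2 CPM in Usp7_Control libraries (-0.11, SE 0.26, adjusted p = 0.87), and the groups overlapped.

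Factors of the placental branches included the clearest change of the list, Esx1 in Ssrp1_KO cells. Esx1, an X-linked homeobox factor of the labyrinth, had 162 and 295 counts (10.7 and 16.2 CPM) in Ssrp1_KO libraries, against 34 and 40 counts (2.23 and 2.27 CPM) in Ssrp1_Control libraries. Both Ssrp1_KO values were far above both controls, and the controls were nearly equal. The change was 5.96-fold (log2 change 2.57, SE 0.50, adjusted p = 0.02), and its size was 2.24 to 2.78 on the log2 scale with any 1 library left out. The call was lost without Ssrp1_Control replicate 1 (2.54, adjusted p = 0.26) or Ssrp1_Control replicate 2 (2.56, adjusted p = 0.085), with 2.7e-06 to 0.26 over the alternatives. Esx1 in the Usp7 experiment had 3.71 and 2.75 CPM in Usp7_KD libraries, against 2.06 and 2.11 CPM in Usp7_Control libraries (0.63, SE 0.39, adjusted p = 0.46). These groups were also apart, by a smaller margin.

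Hand1, a bHLH factor that drives giant cell differentiation, had 3.68 and 4.39 CPM in Ssrp1_KO libraries, against 0.788 and 0.736 CPM in Ssrp1_Control libraries (log2 change 2.40, SE 0.62, adjusted p = 0.061). The Ssrp1_KO libraries lay close together and far above the controls, but the gene narrowly missed the threshold, and it passed with DESeq2 (adjusted p = 0.017) and without Ssrp1_KO replicate 1 (2.46, adjusted p = 0.0049) or replicate 2 (2.26, adjusted p = 0.014), with 0.0049 to 0.6 over the alternatives. In Usp7_KD libraries Hand1 had 1.33 and 2.86 CPM, against 0.589 and 0.822 CPM in Usp7_Control libraries (1.56, SE 0.55, adjusted p = 0.18), and it passed without Usp7_Control replicate 2 (1.81, adjusted p = 0.036; 0.03 to 1.0 over the alternatives). Hand1 is also used in mesoderm. The 10 mesoderm markers summed to 5.39 and 6.59 CPM in Ssrp1_KO libraries, against 2.49 and 4.93 CPM in Ssrp1_Control libraries. They summed to 13.1 and 12.7 CPM in Usp7_KD libraries, against 6.54 and 7.87 CPM in Usp7_Control libraries, and their part in the Hand1 values was not tested.

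Ascl2, an imprinted bHLH factor of the spongiotrophoblast, had 6.32 and 13.7 CPM in Ssrp1_KO libraries, against 2.95 and 7.87 CPM in Ssrp1_Control libraries (log2 change 0.89, SE 0.59, adjusted p = 0.48). For Ascl2 the Usp7_KD libraries had 3.33 and 3.24 CPM, against 5.18 and 6.99 CPM in Usp7_Control libraries (-0.89, SE 0.33, adjusted p = 0.2). The Ssrp1 groups overlapped, and both Usp7_KD values were below both controls. Gcm1, which commits cells to the syncytiotrophoblast, had 2 to 5 counts in the Ssrp1 libraries and was not tested there. Gcm1 had 19 and 35 counts in Usp7_KD libraries, against 9 and 8 counts in Usp7_Control libraries (1.56, SE 0.56, adjusted p = 0.19). Dlx3, a homeobox factor of the labyrinth, varied most of the tested genes between Ssrp1_KO libraries, at 0.0658 and 3.79 CPM, against 0.328 and 1.19 CPM in Ssrp1_Control libraries (1.34, SE 1.16, adjusted p = 0.6). Dlx3 had 2.11 and 1.98 CPM in Usp7_KD libraries, against 1.30 and 2.70 CPM in Usp7_Control libraries (0.03, SE 0.46, adjusted p = 0.98).

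The simple epithelial keratins, which trophectoderm is among the first tissues to make, had 1 gene past the test, Krt7 in Usp7_KD cells, and the difference between the experiments passed for none of the 3 (Krt7 -1.02, adjusted p = 0.75; Krt8 1.95, adjusted p = 0.15; Krt18 0.88, adjusted p = 0.5). Krt7, a type II keratin used as a trophoblast marker, had 29 and 35 counts (1.61 and 1.92 CPM) in Usp7_KD libraries, against 5 and 5 counts (0.295 and 0.294 CPM) in Usp7_Control libraries. Both groups were tight and apart. It rose 5.88-fold (log2 change 2.56, SE 0.56, adjusted p = 0.037). The size stayed at 2.42 to 2.68 with any 1 library left out, but the call was lost without Usp7_Control replicate 1 (adjusted p = 0.069), Usp7_KD replicate 1 (adjusted p = 0.11) or Usp7_KD replicate 2 (adjusted p = 0.54). It was also lost with DESeq2 (adjusted p = 0.068), limma-voom (0.052), no filter (0.11) and a joint fit of both experiments (0.32), with 0.0019 to 0.54 over the alternatives. In the Ssrp1 experiment Krt7 had 6 and 53 counts in Ssrp1_KO libraries, against 10 and 8 counts in Ssrp1_Control libraries (1.58, SE 0.89, adjusted p = 0.39). There 1 Ssrp1_KO library lay below both controls and the other above them.

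Krt8 and Krt18, the type II and type I partners of the same filament, lie close together on chromosome 15. Krt8 had 15.9 and 44.0 CPM in Ssrp1_KO libraries, against 14.8 and 12.1 CPM in Ssrp1_Control libraries (log2 change 1.15, SE 0.46, adjusted p = 0.21). Krt18 had 15.1 and 33.1 CPM in Ssrp1_KO libraries, against 14.4 and 11.7 CPM in Ssrp1_Control libraries (0.89, SE 0.42, adjusted p = 0.3). Replicate 1 was close to the controls for both keratins and replicate 2 was high, and both passed without Ssrp1_KO replicate 1 (Krt8 1.64, adjusted p = 0.0017; Krt18 1.28, adjusted p = 0.028), with 0.0017 to 0.84 and 0.028 to 0.86 over the alternatives. In Usp7_KD libraries Krt8 had 8.04 and 11.5 CPM, against 16.6 and 18.6 CPM in Usp7_Control libraries (-0.85, SE 0.26, adjusted p = 0.12; 0.019 without Usp7_Control replicate 2 and 0.014 to 0.73 over the alternatives). Krt18 had 6.37 and 8.84 CPM in Usp7_KD libraries, against 6.83 and 8.86 CPM in Usp7_Control libraries (-0.05, SE 0.29, adjusted p = 0.96). Krt8 was thus below its controls in both Usp7_KD libraries while Krt18 overlapped them. The ratio of Krt8 to Krt18 counts was 1.26 and 1.30 in Usp7_KD libraries, against 2.43 and 2.09 in Usp7_Control libraries, and it was 1.05 and 1.33 in Ssrp1_KO libraries, against 1.03 and 1.03 in Ssrp1_Control libraries.

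**Figure D2:**
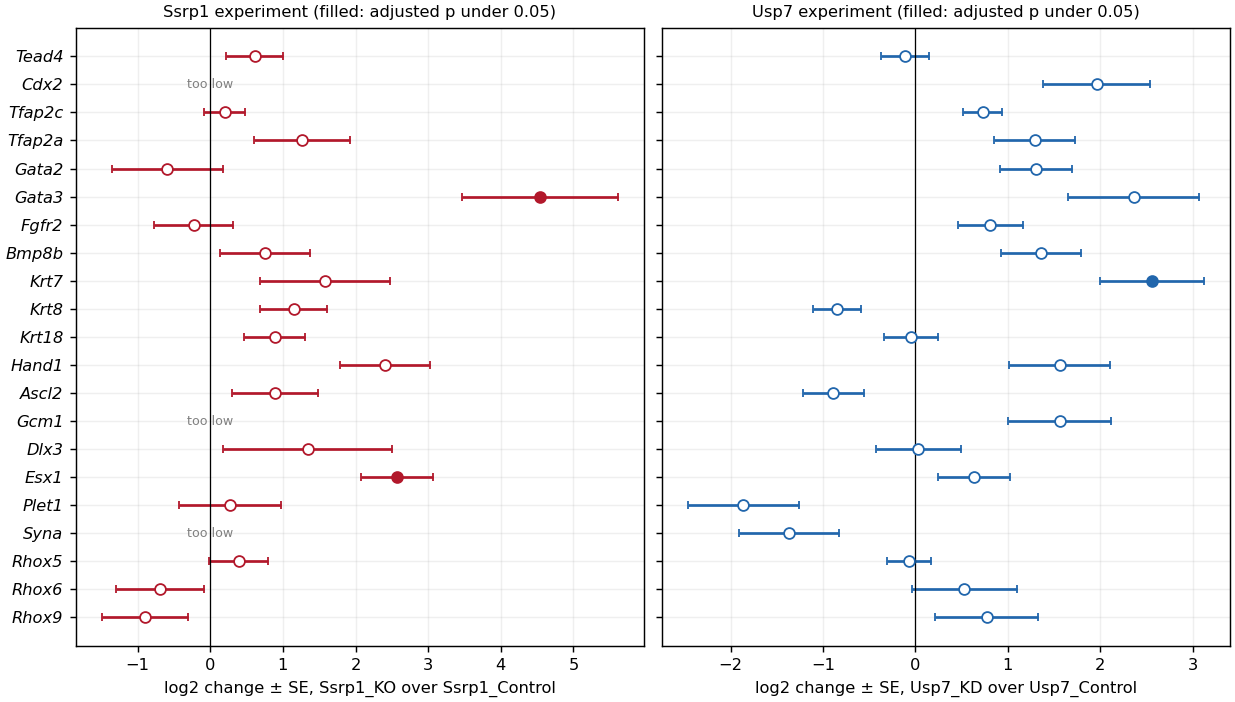
Log2 change with its standard error for each trophoblast gene tested, Ssrp1_KO over Ssrp1_Control and Usp7_KD over Usp7_Control, with filled points for an adjusted p under 0.05 and "too low" for genes not tested. Esx1 (2.57) and Gata3 (4.54) are filled for Ssrp1 and Krt7 (2.56) for Usp7, and error bars are widest for genes with few counts or unequal replicates.

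Of the signalling members, Fgfr2, the receptor through which Fgf4 keeps trophoblast stem cells dividing, had 3.68 and 3.79 CPM in Ssrp1_KO libraries, against 3.35 and 5.38 CPM in Ssrp1_Control libraries (log2 change -0.23, SE 0.55, adjusted p = 0.88). Fgfr2 levels in Usp7_KD libraries were 8.48 and 5.60 CPM, against 4.77 and 3.23 CPM in Usp7_Control libraries (0.81, SE 0.35, adjusted p = 0.27). The Ssrp1 groups overlapped and the Usp7 groups did not. Bmp8b, a ligand made by extraembryonic ectoderm, had 2.43 and 5.10 CPM in Ssrp1_KO libraries, against 1.71 and 2.78 CPM in Ssrp1_Control libraries (0.75, SE 0.62, adjusted p = 0.59). For Bmp8b the Usp7_KD libraries had 2.44 and 3.46 CPM, against 1.12 and 1.17 CPM in Usp7_Control libraries (1.36, SE 0.43, adjusted p = 0.14; 0.044 without Usp7_Control replicate 2 and 0.03 to 1.0 over the alternatives). Exons of Fgfr2 share 314 bases with Ctbp2, a gene on the same strand with 2023 to 5045 counts per library, against 51 to 153 for Fgfr2. Those of Bmp8b share 133 bases with Ppie, on the opposite strand, which had more counts than Bmp8b in every library. The sources used here do not say whether counting used strand.

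The 3 Rhox genes are homeobox genes of an X-linked reproductive cluster, and Rhox6 and Rhox9 are known from the placenta. Rhox5 had 20.4 and 34.7 CPM in Ssrp1_KO libraries, against 28.0 and 14.2 CPM in Ssrp1_Control libraries (log2 change 0.39, SE 0.41, adjusted p = 0.68). Rhox5 levels in Usp7_KD libraries were 60.0 and 70.6 CPM, against 85.5 and 51.2 CPM in Usp7_Control libraries (-0.07, SE 0.24, adjusted p = 0.93). The replicates of Rhox5 spread widely in 3 of the groups and overlapped in both experiments. Rhox6 had 2.24 and 3.90 CPM in Ssrp1_KO libraries, against 6.63 and 3.29 CPM in Ssrp1_Control libraries (-0.69, SE 0.60, adjusted p = 0.6). Rhox9 had 2.30 and 3.24 CPM in Ssrp1_KO libraries, against 7.02 and 3.40 CPM in Ssrp1_Control libraries (-0.90, SE 0.59, adjusted p = 0.46). This is the 1 tested gene whose Ssrp1_KO values both lay below both controls. After Usp7 knockdown Rhox6 had 4.54 and 1.65 CPM in Usp7_KD libraries, against 3.18 and 1.12 CPM in Usp7_Control libraries (0.53, SE 0.57, adjusted p = 0.7). Rhox9 had 3.66 and 1.37 CPM in Usp7_KD libraries, against 2.00 and 0.939 CPM in Usp7_Control libraries (0.77, SE 0.56, adjusted p = 0.53). Replicate 1 was the higher one in both Usp7 groups. The 2 genes moved alike, with count ratios of 0.944 to 1.59 in all libraries, but their best-matching transcripts are 89.0% identical over 888 aligned bases, so reads may be shared between them.

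Genes of the differentiated placenta were mostly at or near 0. Tpbpa and Tpbpb of the spongiotrophoblast, the giant cell hormone Prl3d1 (placental lactogen), the cathepsin Ctsq and the fusion protein Synb (syncytin B) had 0 counts in all 8 libraries. The prolactin family gene Prl2c2 and the pregnancy-specific glycoprotein Psg17 had at most 1 and 3 counts in any library. Plac1, an X-linked membrane protein of trophoblast, had 3 and 8 counts in Ssrp1_KO libraries, against 0 and 0 counts in Ssrp1_Control libraries and 0 in the 4 Usp7 libraries. With a floor of 3 counts set for the control group, Plac1 was 3.61-fold higher in Ssrp1_KO libraries. That value takes the Ssrp1_KO counts as exact and so is not a lower limit, and the gene was too low to test. Syna (syncytin A), which fuses cells of the first syncytial layer, had 9 and 10 counts in Ssrp1_KO libraries, against 6 and 2 counts in Ssrp1_Control libraries, and was not tested there. Syna had 8 and 10 counts in Usp7_KD libraries, against 22 and 22 counts in Usp7_Control libraries (log2 change -1.37, SE 0.54, adjusted p = 0.23). Plet1, a surface protein of early trophoblast, had 1.32 and 5.76 CPM in Ssrp1_KO libraries, against 2.82 and 3.06 CPM in Ssrp1_Control libraries (0.27, SE 0.70, adjusted p = 0.89). Plet1 levels in Usp7_KD libraries were 0.721 and 0.275 CPM, against 2.30 and 1.35 CPM in Usp7_Control libraries (-1.86, SE 0.60, adjusted p = 0.14), and it passed without Usp7_Control replicate 2 (-2.20, adjusted p = 0.009; 0.009 to 0.98 over the alternatives). Both genes were lower than controls in both Usp7_KD libraries.

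The Ssrp1_KO libraries differed from each other more than the Usp7_KD libraries did. Ssrp1_KO replicate 2 held the highest value of the 4 libraries for 12 of the 18 tested genes (66.7%), where it was highest for 28.2% of all genes tested, and replicate 1 was highest for 2 (11.1%, against 27.2% of all genes). Relative to the control mean, on a log2 scale of CPM plus 0.5, Dlx3 was at -1.15 in replicate 1 and 1.77 in replicate 2. Krt7 was at -0.24 and 1.69, and Plet1 at -0.92 and 0.86. Esx1 (2.02 and 2.60), Hand1 (1.73 and 1.95) and Gata3 (1.43 and 1.32) were high in both. Without replicate 1, 7 genes were called (Esx1, Gata3, Hand1, Krt8, Krt18, Krt7 at 2.32 with adjusted p = 0.023 and Dlx3 at 2.23 with adjusted p = 0.015; 0.023 to 0.97 and 0.015 to 1.0 over the alternatives), where 8.98% of all genes were called. Without replicate 2, 4 were called (Esx1, Gata3, Hand1 and Tfap2a; 11.5% of all genes). Without Ssrp1_Control replicate 1 or replicate 2, 0 were called (0.117% and 2.11% of all genes). Replicate 2 is also the library with the lower Ssrp1 level and the higher sum of 13 2-cell-like markers, 530 and 1530 CPM in Ssrp1_KO libraries, against 90.4 and 203 CPM in Ssrp1_Control libraries, of which none was at 0 in every Ssrp1 library. Their part in the trophoblast values was not tested.

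**Figure D3:**
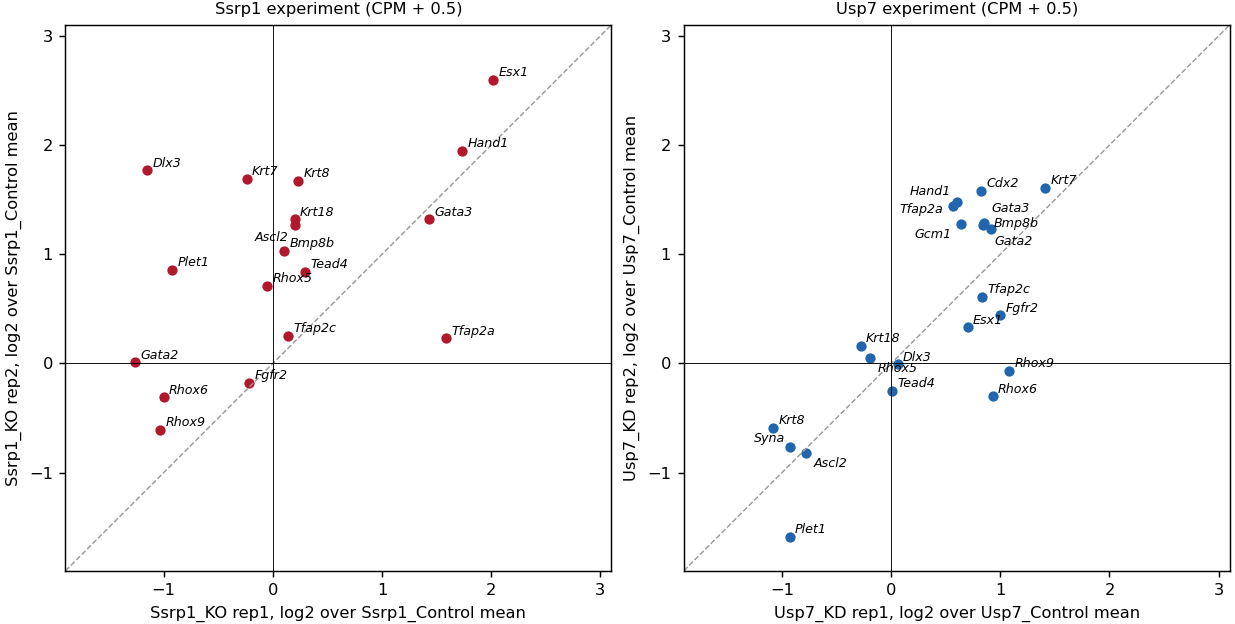
Log2 of CPM plus 0.5 over the control mean for each tested trophoblast gene, replicate 1 on the horizontal and replicate 2 on the vertical axis, for Ssrp1_KO and Usp7_KD; the dashed line marks equal values. Most Ssrp1 genes sit above the line, with Esx1, Hand1 and Gata3 high on both axes. Among the Usp7 genes, 1 group is high in both and a smaller group (Krt8, Syna, Ascl2, Plet1) is low in both. Rhox5, Rhox6, Rhox9, Krt18, Tead4 and Dlx3 are in neither group, with opposite signs in the Usp7_KD libraries.

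In the Usp7 experiment both Usp7_KD values were above both controls for 11 of the 21 tested genes and below them for 4, where the groups were apart for 48.0% of all genes tested, 24.6% above and 23.4% below. In the Ssrp1 experiment the counts were 8 above and 1 below of 18, where the shares of all genes were 50.0%, 27.3% above and 22.7% below. Without Usp7_Control replicate 2, 8 genes were called in the Usp7 experiment (Krt7, Tfap2c, Gata2, Hand1, Bmp8b and Cdx2 higher, Krt8 and Plet1 lower), but 3770 genes in all (22.5%) were then called, against 476 with all libraries. Of the 21, 0 were called without Usp7_Control replicate 1 (3.71% of all genes), Usp7_KD replicate 1 (2.0%) or Usp7_KD replicate 2 (0.253%).

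The Ssrp1 change minus the Usp7 change was tested for each gene on all 8 libraries together. Of 18 genes tested in both, 8 had a log2 change above 0 in both, 0 below 0 in both and 10 opposite signs. By edgeR, 0 of 21 genes tested in the joint fit passed (1.00% of 17052 genes did, 0.610% higher and 0.393% lower; 0.886% with the GC and length correction), DESeq2 called 1 (Krt8; 4.36% of all genes) and limma-voom 0 (0.651%). At an unadjusted p under 0.05 there were 4 higher and 0 lower (15.1% of all genes, 9.19% higher and 5.95% lower). The 4 were all higher in the Ssrp1 comparison. Krt8 differed by 1.95 (SE 0.59, adjusted p = 0.15; 0.009 without Ssrp1_KO replicate 1, and 0.0033 to 0.49 over the alternatives) and Esx1 by 1.90 (SE 0.56, adjusted p = 0.14). Syna differed by 2.49 (adjusted p = 0.27) and Ascl2 by 1.74 (adjusted p = 0.28). So the data do not show that the call of Esx1, Gata3 or Krt7 in 1 experiment was particular to it.

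Genes around this list were counted by further lists of textbook genes. Beside them, edgeR called 3.39% of all genes tested higher and 0.324% lower in the Ssrp1 experiment. For the Usp7 experiment these shares were 2.36% and 0.628%. Of 36 other trophoblast and placenta genes, 24 were tested in the Ssrp1 experiment, of which 1 was higher and 0 lower (median log2 change 0.03), and 22 in the Usp7 experiment, of which 0 were higher and 1 lower (median 0.36). The riser was the growth factor Igf2, with 11 and 23 counts in Ssrp1_KO libraries, against 1 and 0 counts in Ssrp1_Control libraries, a ratio of 33.5 with a counting interval of 5.61 to 1360 (adjusted p = 0.043), a call that ended without Ssrp1_Control replicate 1 (adjusted p = 0.43) or replicate 2 (adjusted p = 0.33). It was also lost with all libraries kept, with DESeq2 (adjusted p = 0.1), the GC and length correction (0.06) and the joint fit (0.066), with 0.0027 to 0.43 over the alternatives. The gene called lower was Phlda2, an imprinted brake on placental growth, at -1.16 in Usp7_KD cells (adjusted p = 0.036) and also -1.16 in Ssrp1_KO cells (adjusted p = 0.056). The Usp7 call was lost without Usp7_Control replicate 1 (adjusted p = 0.063), Usp7_KD replicate 1 (0.28) or Usp7_KD replicate 2 (0.38), and the Ssrp1 value passed without Ssrp1_KO replicate 2 (0.017), with 1.8e-05 to 0.38 and 0.01 to 0.54 over the alternatives. With all libraries kept, the Usp7 call of Phlda2 was also lost with no filter (adjusted p = 0.15) and with the joint fit (0.13). Its Ssrp1 value passed with all libraries kept under RLE scaling (adjusted p = 0.048), DESeq2 (0.012) and no filter (0.01). The same held for a replicate block (0.034) and the joint fit (0.022). Eomes, which with Elf5 maintains trophoblast stem cells, had 1.08 (adjusted p = 0.31) in the Ssrp1 experiment and 0.48 (adjusted p = 0.35) in the Usp7 experiment. Of the 36 genes, 8 were at 0 in every library, all of them placental hormone, glycoprotein or protease genes.

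Over all genes tested, edgeR called 3.71% in the Ssrp1 experiment (3.39% higher) and 2.99% in the Usp7 experiment (2.36% higher). In the Hippo pathway, which controls Tead4 through Yap1, 19 of 20 genes were tested in each experiment. In Ssrp1_KO cells 3 rose and 0 fell, Amot, a scaffold that holds Yap1 in the cytoplasm (3.24, adjusted p = 0.016), and the Yap1 target genes Ccn2 (2.31, adjusted p = 0.014) and Ccn1 (1.99, adjusted p = 0.024). In Usp7_KD cells 3 rose and 0 fell, Ccn1 (1.68, adjusted p = 0.0033), Ccn2 (1.19, adjusted p = 0.02) and the Amot relative Amotl2 (0.94, adjusted p = 0.021). Thus Ccn1 and Ccn2 were called in both experiments, where Tead4 itself was called in neither. Yap1 had 0.41 (adjusted p = 0.57) in Ssrp1_KO and 0.18 (adjusted p = 0.66) in Usp7_KD cells. Without Ssrp1_Control replicate 1 the Ssrp1 calls of Amot (adjusted p = 0.21), Ccn2 (0.16) and Ccn1 (0.25) ended, as did those of Amot (0.086) and Ccn1 (0.097) without Ssrp1_Control replicate 2. Without Usp7_KD replicate 2 the Usp7 calls of Ccn1 (0.15), Ccn2 (0.6) and Amotl2 (0.62) ended, and Amotl2 also lost its call without Usp7_KD replicate 1 (0.11). Over the alternatives the adjusted p was 1.7e-06 to 0.21 for Amot, 2.8e-07 to 0.16 for Ccn2 and 7e-05 to 0.25 for Ccn1 in Ssrp1_KO cells, and 2.3e-13 to 0.15 for Ccn1, 2.9e-09 to 0.6 for Ccn2 and 5.1e-06 to 0.62 for Amotl2 in Usp7_KD cells. With all libraries kept, the Usp7 calls of Ccn2 and Amotl2 were also lost with no filter (adjusted p = 0.14 and 0.11). The same held for the joint fit (0.13 for each). Among genes of BMP signalling, 17 were tested in each experiment. At an unadjusted p under 0.05, 3 were higher and 0 lower in the Ssrp1 experiment, where 13.3% and 4.95% of all genes were. For the Usp7 experiment these counts were 5 and 1, where 9.52% and 7.18% of all genes were. By edgeR 0 of 17 were called in the Ssrp1 experiment (DESeq2 called 2 and limma-voom 0). In the Usp7 experiment 1 of 17 was, the target gene Id2 (1.37, adjusted p = 0.028; 0.057 without Usp7_Control replicate 1 and 0.69 without Usp7_KD replicate 2, with 1.2e-06 to 0.69 over the alternatives). Id2 also lost that call with all libraries kept, with no filter (adjusted p = 0.15) and with the joint fit (0.25). Of the FGF and ERK genes, 0 of 18 and 0 of 19 were called in the Ssrp1 and Usp7 experiments by edgeR, while DESeq2 called 0 and 1 and limma-voom 0 and 0. An unadjusted p under 0.05 was found for 2 in each, where 18.2% and 16.7% of all genes had one.

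Krt7, Krt8, Krt18, Gata3, Tfap2a and Tfap2c are used by other epithelia as well, so markers of other cell types are given beside them. By edgeR 3.71% of all genes tested were called in the Ssrp1 experiment and 2.99% in the Usp7 experiment. The 11 surface ectoderm markers summed to 46.7 and 67.3 CPM in Ssrp1_KO libraries, against 64.8 and 67.0 CPM in Ssrp1_Control libraries, with Ivl at 0 in all 4 and Krt17 lower (log2 change -2.00, adjusted p = 0.043; 0.57 without Ssrp1_Control replicate 1 and 0.065 without replicate 2, with 0.00028 to 0.57 over the alternatives). They summed to 122 and 147 CPM in Usp7_KD libraries, against 65.8 and 72.5 CPM in Usp7_Control libraries, where 1 of 5 tested rose, Perp, a desmosome gene that is also a p53 target (2.28, adjusted p = 0.0005). The 16 primitive endoderm markers summed to 475 and 590 CPM in Ssrp1_KO libraries, against 296 and 317 CPM in Ssrp1_Control libraries, with Ttr at 0 in all 4. Of 12 tested, 12 had a log2 change above 0 (median 1.51, beside 0.03 over all genes). Both Ssrp1_KO values were above both controls for 10, where 27.3% of all genes were. An unadjusted p under 0.05 was found for 8 of the 12, all higher, where 13.3% of all genes were higher at that level. By edgeR 1 of them rose (DESeq2 called 5 and limma-voom 1), the endocytic adaptor Dab2 (2.87, adjusted p = 0.035; 0.48 without Ssrp1_Control replicate 1 and 0.083 without replicate 2, with 1.7e-05 to 0.48 over the alternatives). They summed to 434 and 449 CPM in Usp7_KD libraries, against 338 and 354 CPM in Usp7_Control libraries, with Afp at 0 in all 4. Of 11 tested, 0 were called by edgeR (DESeq2 called 1 and limma-voom 1). An unadjusted p under 0.05 was found for 3 of the 11, all higher, where 9.52% of all genes were higher at that level. The 10 fibroblast markers summed to 25.3 and 60.0 CPM in Ssrp1_KO libraries, against 28.6 and 35.6 CPM in Ssrp1_Control libraries, and to 27.7 and 34.3 CPM in Usp7_KD libraries, against 33.5 and 45.8 CPM in Usp7_Control libraries. The 13 2-cell-like markers, several of which are near-identical copies, summed to 33.6 and 26.0 CPM in Usp7_KD libraries, against 5.42 and 4.17 CPM in Usp7_Control libraries, with Tcstv1 at 0 in all 4. What part any of these lists has in the trophoblast values was not tested.

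**Figure D4:**
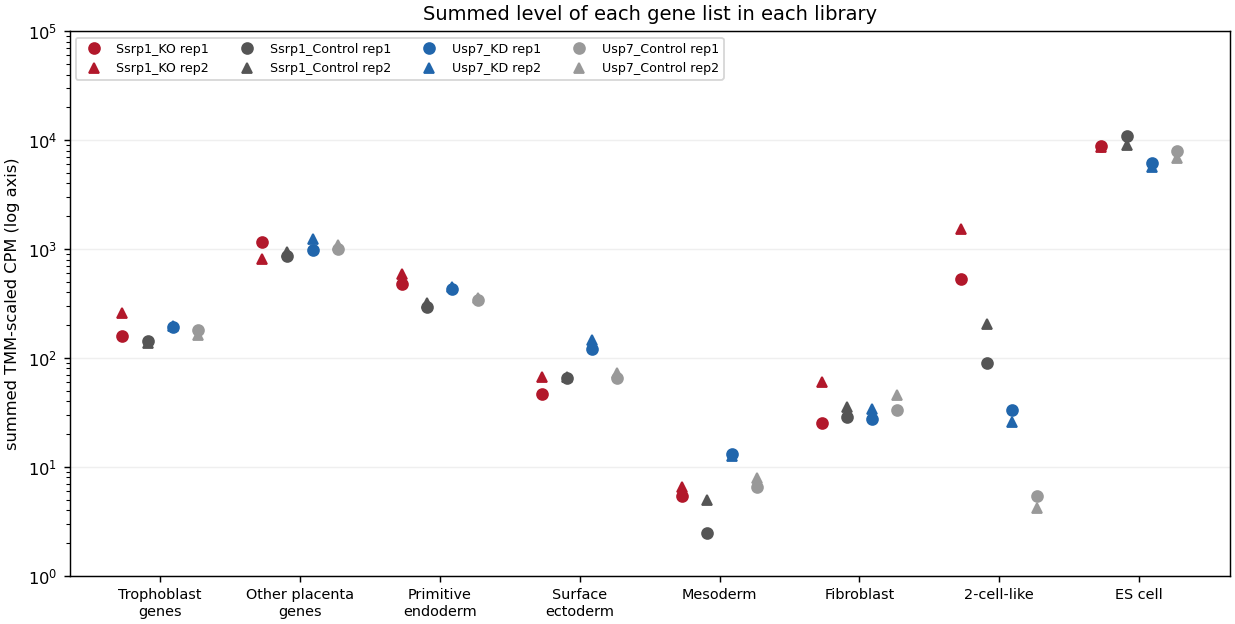
Summed TMM-scaled CPM (log axis) of the trophoblast list, the other placenta genes and 6 lists of cell type markers in each library, with circles for replicate 1 and triangles for replicate 2. The 30 trophoblast genes summed to 159 and 258 CPM in Ssrp1_KO, against 142 and 136 CPM in Ssrp1_Control, and to 191 and 195 CPM in Usp7_KD, against 180 and 163 CPM in Usp7_Control, while the 2-cell-like markers are the list furthest from their controls in both experiments.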

How the data were processed

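The authors deposited raw counts of reads per gene in 1 table per experiment, each with 4 libraries, 54232 genes and 92 spike-in sequences that were all at 0. Per the submitters' processing notes, cutadapt, HISAT2 and featureCounts were used on mm10. Neither tool versions nor annotation, strand mode or the handling of multi-mapping reads were stated there, so reads of close copies, overlapping and antisense genes may be shared; exons of 9 of the 30 genes overlap another gene. Symbols, positions and exon lengths came from GENCODE M21, in which 153 identifiers had no symbol, and promoters from RefSeq (GRCm38.p6).

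Tests used edgeR 4.0.16 (R 4.3.3) on the 4 libraries of an experiment (filterByExpr, TMM, quasi-likelihood F test, Benjamini-Hochberg adjustment over all genes, called at an adjusted p under 0.05) and, for the difference between experiments, on all 8. The steps were tested on simulated data with changes planted only in better expressed genes, so that test does not cover calls on few counts. Standard errors follow from the change and its F statistic, and intervals for low counts are exact binomial at 95%, for counting error only. Alternatives were DESeq2 1.42.0, limma-voom 3.58.1, other scaling and filters, a GC and length correction (loess, span 0.3), a replicate block and leaving out each library. All 30 genes are accounted for, with every library's value for those that passed the filter. Other genes named are Ssrp1, Usp7, Pou5f1, Eomes, Yap1 and up to 3 called genes of each further list with the largest change, of which 2-cell-like genes are given as sums. The members and lists were chosen with earlier results of these data known.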

Additional observations from a re-analysis of the deposited data

How the results depend on the processing

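Of 514 values of single trophoblast genes under the alternatives that keep all libraries, 474 kept their direction and side of the threshold, 5 lost the threshold, 26 gained it and 9 changed sign. With 1 library left out, 274 of 324 kept both, 7 lost it, 15 gained it and 28 changed sign; a group left with 1 library is then assumed to vary like the other. The number called in the Ssrp1 experiment was 2, but 1 with the GC and length correction and 0 to 7 with a library left out. In the Usp7 experiment it was 1, but 0 with DESeq2, limma-voom, no filter or the joint fit, 2 with the GC and length correction and 0 to 8 with a library left out. For the difference it was 0, but 1 (Krt8) with DESeq2 or no filter, and 0 to 1 with a library left out. The cause of these moves was not tested. Replicate numbers only name the libraries: deviations of same-numbered libraries correlated at 0.184 in the Ssrp1 and 0.144 in the Usp7 experiment, over genes and on 2 pairs each. With a replicate block, 3 genes were called in the Ssrp1 experiment (Esx1, Gata3 and Hand1; 6.27% of all genes) and 9 in the Usp7 experiment (Krt7, Tfap2c, Krt8, Plet1, Cdx2, Gata2, Bmp8b, Gata3 at an adjusted p of 0.035 and Tfap2a at 0.043; 9.24% of all genes, against 2.99% without it). With the block and the GC and length correction together these counts were 3 (5.52% of all genes), 10 (these 9 and Hand1; 11.1%) and, for the difference, 1 (Krt8; 2.48%). DESeq2 gave Gata3 no adjusted p in the Ssrp1 experiment.

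Signs changed as follows. In the Ssrp1 experiment Dlx3 was -0.04 and Plet1 -0.05 with limma-voom, and Plet1 was -0.03 with the block and -0.26 with block and correction. In the Usp7 experiment Krt18 and Rhox5 were each 0.11 with the correction and 0.12 with block and correction. The Dlx3 difference was -0.19 with limma-voom. Outside the list, Id2 in the Ssrp1 experiment was -0.11 with the correction and -0.28 with block and correction, and Krt17 in the Usp7 experiment was 0.04 with each. With a library left out, the ranges that crossed 0 in the Ssrp1 experiment were -1.66 to 0.53 for Gata2, -0.55 to 0.14 for Fgfr2, -0.05 to 0.94 for Rhox5, -3.41 to 2.51 for Dlx3, -0.48 to 2.32 for Krt7, -1.16 to 0.91 for Plet1, -0.27 to 0.07 for Usp7, -0.21 to 0.81 for Yap1 and -0.66 to 0.66 for Id2. In the Usp7 experiment they were -0.40 to 0.64 for Dlx3, -0.40 to 0.36 for Rhox5, -0.39 to 1.47 for Rhox6, -0.10 to 1.42 for Rhox9, -0.30 to 0.17 for Krt18, -0.38 to 0.21 for Tead4, -0.12 to 0.05 for Suz12 and -0.35 to 0.08 for Krt17. For the difference they were -1.06 to 0.47 for Tfap2a, -1.76 to 0.59 for Cdx2, -0.07 to 1.00 for Rhox5 and -3.52 to 2.41 for Dlx3. Genes of the list that were not tested had at most 10 counts in any library of the experiment, so depth and 2 libraries per group limit what can be said of them.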

Other observations

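Over all genes tested, edgeR called 3.71% in the Ssrp1 experiment and 2.99% in the Usp7 experiment. Of 15 genes known as barriers to trophoblast fate in ES cells, 1 rose in Ssrp1_KO cells and 0 fell. This was Suz12, a subunit of the repressive complex PRC2, at a log2 change of 1.74 (adjusted p = 0.014; 0.15 without Ssrp1_Control replicate 1 and 5.6e-06 to 0.15 over the alternatives), against -0.04 (adjusted p = 0.95) in Usp7_KD cells, and the difference of 1.73 passed (adjusted p = 0.029). In Usp7_KD cells 0 of the 15 were called by edgeR, while DESeq2 called 1 and limma-voom 0. There 12 had a log2 change below 0 and 3 above (median -0.22, beside -0.02 over all genes tested). Both Usp7_KD values were below both controls for 8 and above them for 2, where 23.4% and 24.6% of all genes were. At an unadjusted p under 0.05, 2 were lower and 0 higher (7.18% and 9.52% of all genes). In Ssrp1_KO cells 10 of the 15 were above 0 and 5 below (median 0.36).

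Outside the 3 members, 13 further genes of the Rhox cluster were looked at, of which 2 were tested in the Usp7 experiment and 3 in the Ssrp1 experiment. Rhox13, at the far end of the cluster, was higher in Usp7_KD cells (3.78, adjusted p = 0.00074), a call that held under all 13 alternatives. In Ssrp1_KO cells it was at 2.24 (adjusted p = 0.051; 0.04 without Ssrp1_KO replicate 1 and 4.4e-07 without replicate 2, with 4.4e-07 to 0.2 over the alternatives). With all libraries kept, this Ssrp1 value passed under RLE scaling (adjusted p = 0.049), DESeq2 (0.002) and no filter (0.00038). It also passed with the replicate block (0.0082), the GC and length correction (0.035), both together (0.0023) and the joint fit (0.023). The difference between the experiments was -1.60 (adjusted p = 0.34). Rhox5, Rhox6 and Rhox9 were called in neither experiment.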
